A study of Rattus norvegicus with 6 samples.

Results

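miR-451, miR-144 and miR-486 are the miRNAs most closely tied to red blood cells. Their rows were taken from a table of 764 rat miRNA entries by name: the entry miR-486 and every entry whose name begins with miR-451 or miR-144. This gave 5 rows, rno-miR-451-5p, rno-miR-451-3p, rno-miR-144-3p, rno-miR-144-5p and rno-miR-486 (written below without the rat prefix rno), among 570 entries with a value above 0 in some library. The libraries held small RNA of tissue labelled testicle of Sprague Dawley rats, all male, and came as 3 HO-1 knockout and 3 HO-1 wild type libraries. HO-1 is heme oxygenase 1, the enzyme that opens the heme ring and releases biliverdin, iron and carbon monoxide. In both genotypes the left testicle had been twisted by 720° for 2 h and then left in its natural position for 3 days, so the animals shared the injury and differed by genotype. Sham-operated or uninjured tissue was not analysed here, and the labels state neither how the deletion was made, nor the animals' age, nor whether each library came from a separate animal. The p-values therefore measure only the spread between these libraries.

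miR-144 and miR-451 are cut from a shared primary transcript that the erythroid transcription factor GATA1 switches on as red cell precursors mature. miR-451 is known for a short hairpin that Dicer does not process: the slicer protein Ago2 cuts it instead, and the mature strand runs from the 5′ arm into the loop. miR-144-3p is known to repress the messenger RNA of Nrf2, the factor that induces HO-1 under oxidative stress, and miR-486, from an intron of the ankyrin gene Ank1, is shared by red cells and striated muscle. Mature red cells keep these miRNAs after losing their nucleus, so in whole tissue they also report how much blood was left in the sample. HO-1 itself clears the heme of broken-down red cells.

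The mature sequences are shown because the arms of each hairpin are compared below. They are from RefSeq on build GRCr8, 5′ to 3′, with the seed (bases 2 to 8) in capitals, for the 4 members that the RefSeq table holds.
miR-451-5p: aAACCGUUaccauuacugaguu
miR-451-3p: aUGGUAAUgguucucuugcugcu
miR-144-3p: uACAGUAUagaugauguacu
miR-144-5p: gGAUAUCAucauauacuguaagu
The 4 seeds differ from each other. In the miR-144 hairpin, at chr10:63459397-63459479 on the plus strand of GRCr8, the capitals mark the 5p arm and then the 3p arm.
miR-144 hairpin: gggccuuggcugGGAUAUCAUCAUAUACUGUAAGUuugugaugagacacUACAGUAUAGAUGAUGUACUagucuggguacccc
In this build the arms of miR-144 lie 14 bases apart, those of miR-451 lie 5 bases apart, and miR-451-5p begins 119 bases beyond the end of miR-144-3p on the same strand. The submitters' processing notes name the older build rn6, and these coordinates are not converted to it.

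Values were reads per 1000000 assigned reads (RPM). Libraries held 8300536 to 10042673 assigned reads, so 3 reads, the limit that a count of 0 allows, equalled 0.299 to 0.361 RPM. The labelled tissue was not mirrored by its markers. miR-122-5p, the miRNA of hepatocytes, stood between 326912 and 463696 RPM in every library, while miR-34c-5p of germ cells ranged from 18.4 to 38.0 RPM and miR-202-5p, of the gonads, from 0.71 to 2.22 RPM. Of 16 testis markers, 5 were at 0 in all libraries. Which tissue the red cell miRNAs below were in is therefore not settled by these values.

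miR-451-5p was the most abundant of the 5 members and ranked between 84 and 102 by level among the 455 to 498 miRNAs above 0 in a library. It stood at 231, 289 and 224 RPM in wild types 1 to 3 and at 157, 210 and 210 RPM in knockouts 1 to 3. In these RPM values every knockout library lay below every wild type library, by a narrow margin between knockout 2 and wild type 3, and knockout 1 was the lowest of all. TMM scaling, an alternative scaling of the libraries used below, had factors from 0.845 in knockout 1 to 1.23 in wild type 1. After division by these factors the groups overlapped. These values rest on 1300 to 2634 reads a library. Counting error was about 2.07% for wild type and 2.43% for knockout libraries, against a spread between libraries of 14.3% and 16.02% (coefficient of variation, n = 3). The means were 248 ± 36 RPM for the wild type and 192 ± 31 RPM for the knockout (SD, n = 3), a log2 change of -0.37 on the scale of log2(RPM + 1), with a 95% interval of -0.75 to 0.01 (limma, adjusted p = 0.27).

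Its partner strand, miR-451-3p, was near the limit of detection. It had 3, 1 and 2 reads in wild type libraries 1 to 3 and 3, 3 and 2 reads in knockout libraries 1 to 3, or 0.11 to 0.36 RPM. No library exceeded the 3 reads that a count of 0 allows, so no difference between genotypes was detectable at this depth (limma, log2 change 0.11, adjusted p = 0.60). The opposite held within miR-144, whose arms were recovered at similar levels.

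miR-144-3p, the strand that targets Nrf2, stood at 32.5, 33.2 and 31.0 RPM in wild types 1 to 3 and at 47.2, 40.7 and 22.4 RPM in knockouts 1 to 3. The wild type libraries were almost equal, while the knockout held both the highest pair and the lowest library of all 6, so the groups overlapped. The spread between wild type libraries, 3.43%, lay below their counting error of 5.71%, so their evenness carries no information beyond counting. In the knockout the spread was 35.1% against a counting error of 5.70%. The means were 32.2 ± 1.1 and 36.8 ± 12.9 RPM (SD, n = 3), which gave a log2 change of 0.12 and a 95% interval of -0.51 to 0.75 (limma, adjusted p = 0.79). Without knockout library 1 the sign turned, to a log2 change of -0.09 (limma, adjusted p = 0.88).

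miR-144-5p, its sister arm, stood at 30.2, 39.1 and 25.3 RPM in wild types 1 to 3 and at 24.1, 23.4 and 21.6 RPM in knockouts 1 to 3. Here the wild type was the scattered group and the knockout the even one. The knockout spread of 5.61% lay below its counting error of 6.95%, against 22.2% and 5.83% in the wild type. In these RPM values every knockout library lay below every wild type library, but with TMM scaling the groups overlapped. The means were 31.5 ± 7.0 and 23.01 ± 1.3 RPM (SD, n = 3), which gave a log2 change of -0.42 and a 95% interval of -0.88 to 0.05 (limma, adjusted p = 0.29).

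miR-486 stood at 174, 219 and 192 RPM in wild types 1 to 3 and at 149, 185 and 174 RPM in knockouts 1 to 3. Its groups overlapped, with wild type 2 the highest and knockout 1 the lowest library, as for miR-451-5p. The means were 195 ± 23 and 169 ± 18 RPM (SD, n = 3), which gave a log2 change of -0.20 and a 95% interval of -0.53 to 0.12 (limma, adjusted p = 0.46). miR-486 is also known from striated muscle, so the muscle markers are given beside it. miR-1-3p, miR-133a-3p, miR-133b-3p and miR-206-3p stayed at or below 4.85 RPM in every library, miR-208a-3p and miR-208b-3p were at 0, and miR-499-5p stood between 59.6 and 137 RPM. The 7 muscle rows summed to 87.2 to 142 RPM over the wild type libraries, to 68.3 to 83.1 RPM over the knockout ones, and their part in the level of miR-486 was not tested.

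**Figure D1:**
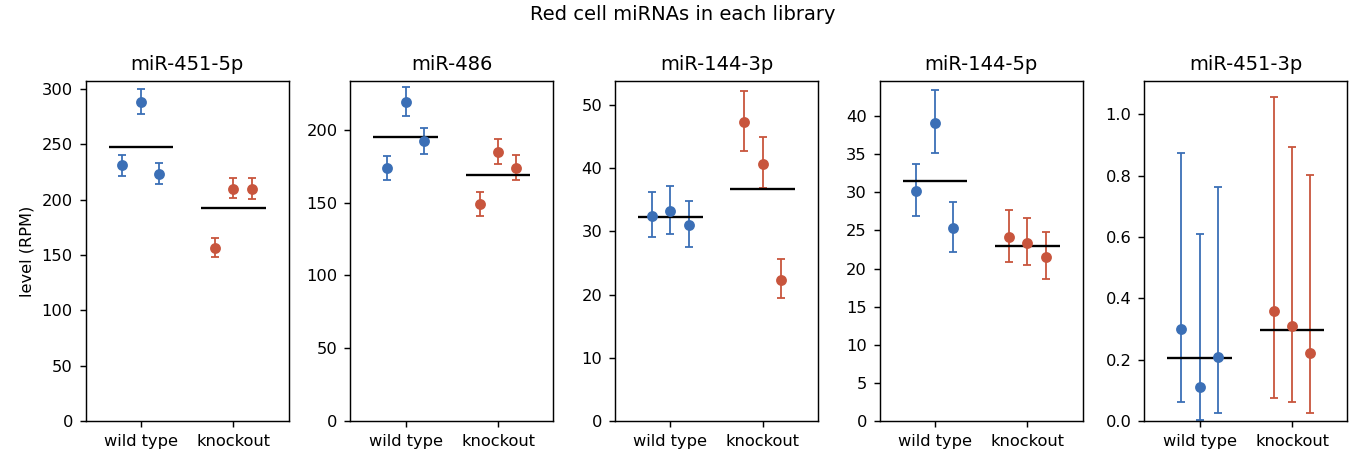
Level of each member in RPM (y axis, from 0, a separate scale in each panel) by genotype (x axis); points are the 3 libraries of each genotype in the order 1 to 3, vertical bars the exact 95% Poisson interval of the reads, which covers counting error only, and black lines the group means. In these RPM values, without further scaling, the knockout libraries of miR-451-5p and miR-144-5p sit below all wild type libraries. Those of miR-144-3p spread from 22.4 to 47.2 RPM around an even wild type.

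In order of level, miR-451-5p came first, then miR-486, miR-144-3p, miR-144-5p and miR-451-3p. miR-451-5p exceeded miR-486 in 6 of 6 libraries, but by 1.05 to 1.33 times, and the ranges of both over the libraries overlapped. miR-144-3p and miR-144-5p also overlapped, with miR-144-3p higher in 5 of 6 libraries and a ratio of 0.85 to 1.96. The steps from miR-486 down to miR-144-3p, at 3.15 to 7.77 times, and from miR-144-5p down to miR-451-3p were wider than the spread of either member. These are read shares after adapter ligation, which does not take up all sequences equally, so they order the rows of this table and not the molecules in the tissue.

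No member passed the test between genotypes. Of the 5, 0 passed limma's test at an adjusted p of 0.05 in either direction, where 6.32% of the 570 tested miRNAs did, and 0 had an unadjusted p below 0.05. edgeR's quasi-likelihood test and DESeq2, run on the read counts behind the RPM values, also called 0 members, where they called 10.7% and 12.6% of the table. The smallest unadjusted limma p was 0.057, for miR-451-5p. In RPM without further scaling, the groups did not overlap, with the knockout lower, for 2 of the 5 members, against 21.6% of all tested rows. Among the 4 members of at least 10 RPM this was 2, against 41.7% of the 218 rows of that level, so the members' share was near the background.

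The log2 changes of miR-451-5p, miR-144-5p and miR-486 lay close to a general shift. Over the 218 miRNAs of at least 10 RPM, the median of the log2 changes was -0.29, while miR-122-5p stood at 351717 ± 21527 RPM with HO-1 and 434232 ± 30688 RPM without it (SD, n = 3; limma, adjusted p = 0.095). With TMM scaling that median became -0.07, the log2 change of miR-451-5p became -0.15, that of miR-144-5p -0.20, and that of miR-486 0.02, a change of sign. Over the whole table, 32 fell and 4 rose among the 36 calls, and 29 fell and 20 rose among the 49 with TMM scaling. The change of miR-144-3p grew to 0.34 with TMM scaling (limma, adjusted p = 0.58). In the authors' deposited table the log2 fold change was -0.37 for miR-451-5p with a p-value of 0.374, -0.45 for miR-144-5p with 0.318, -0.21 for miR-486 with 0.972, 0.19 for miR-144-3p with 0.141 and 0.52 for miR-451-3p with 0.512.

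**Figure D2:**
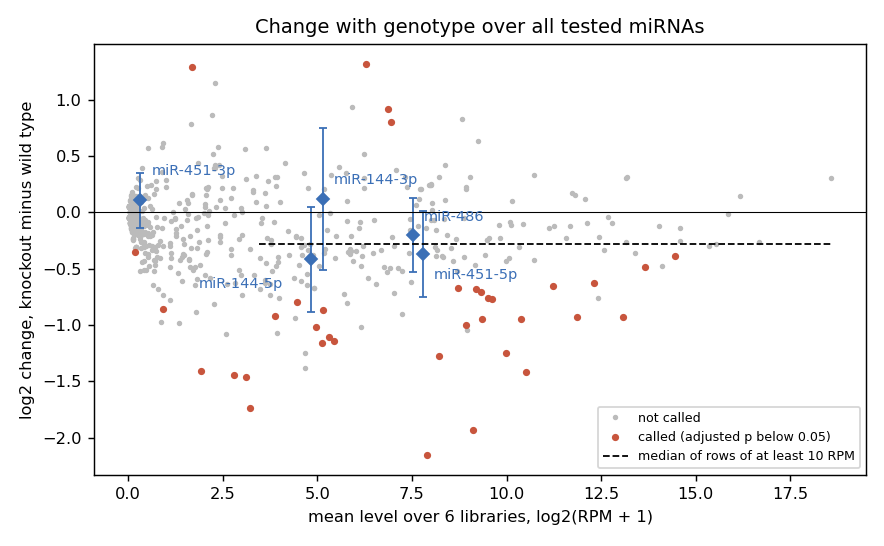
Log2 change of the knockout against the wild type (y axis) by mean level over the 6 libraries in log2(RPM + 1) (x axis) for the 570 tested miRNAs; red points passed limma's test at an adjusted p below 0.05, and blue diamonds with bars are the 5 members with their 95% intervals. The dashed line is the median of the miRNAs of at least 10 RPM, -0.29, and crosses the intervals of the 4 members of that level.

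As a readout of blood, the 5 members were summed. They made up 468, 580 and 472 RPM in wild types 1 to 3 and 377, 459 and 428 RPM in knockouts 1 to 3. All knockout libraries were lower, with means of 507 ± 64 and 421 ± 41 RPM (SD, n = 3; two-sided p = 0.1 by exact permutation, which is the smallest value that 3 against 3 can give). The difference of -85.4 RPM was -16.8% of the wild type mean. It became -3.77% with TMM scaling (-17.8 RPM, exact permutation p = 0.7). With miR-122-5p left out of the total, which raises the RPM of every other row, the means were 783 and 744 RPM, a difference of -39.6 RPM or -5.05% (exact permutation p = 0.9). The size of the difference thus depended on the scaling, and a loss of red cell miRNA is not shown. In bulk tissue, fewer red cells and less of each miRNA per cell could not be told apart either.

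Ratios within a library do not depend on how its total was scaled, and 5 were compared. The ratio of miR-451 to miR-23a-3p is used in plasma as a measure of red cell lysis, since miR-23a-3p is known to be little affected by lysis. Whether it measures lysis or blood in whole tissue was not tested. This ratio was 0.312, 0.409 and 0.396 in wild type libraries 1 to 3 and 0.374, 0.402 and 0.411 in knockout libraries 1 to 3. The genotypes overlapped and differed by 0.10 on the log2 scale (exact permutation p = 0.6, 0.6 adjusted over the 5 ratios). miR-23a-3p itself averaged 670 ± 93 RPM with HO-1 and 484 ± 57 RPM without it (SD, n = 3; limma, adjusted p = 0.11).

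The ratio of miR-451-5p to miR-16-5p, another miRNA abundant in red cells, was 0.254, 0.309 and 0.256 in wild type libraries 1 to 3 and 0.351, 0.372 and 0.349 in knockout libraries 1 to 3. All knockout libraries were higher, by 0.39 on the log2 scale (exact permutation p = 0.1, the smallest possible, 0.5 adjusted over the 5 ratios). Of this pair miR-16-5p passed limma's test, and it fell from 906 ± 29 to 538 ± 81 RPM (SD, n = 3; limma, log2 change -0.76, SE 0.13, adjusted p = 0.017).

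The ratio of miR-486 to miR-451-5p was the steadiest of the ratios among members, between 0.752 and 0.951 over the 6 libraries. It was higher by 0.17 on the log2 scale in the knockout, where 1 library, knockout 3, lay below wild type 3 (exact permutation p = 0.2, adjusted 0.5). The ratio of miR-144-3p to miR-451-5p ranged from 0.107 in knockout 3 to 0.302 in knockout 1, with the wild type between 0.115 and 0.141 (exact permutation p = 0.4, adjusted 0.5). The arm ratio of miR-144, 5p over 3p, was 0.510, 0.574 and 0.965 in knockout libraries 1 to 3 and 0.929, 1.18 and 0.816 in wild type libraries 1 to 3 (exact permutation p = 0.3, adjusted 0.5). Knockout library 3 thus had an arm ratio inside the wild type range, and knockout 1 and 2 lay below it.

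The 6 pairs among the 4 members of at least 10 RPM were compared across the 6 libraries, and none passed after adjustment. For miR-451-5p and miR-486, Pearson's r of log2(RPM + 1) was 0.94 (exact permutation p = 0.032, adjusted over 6 pairs 0.19) and Spearman's rho was 0.66 (exact permutation p = 0.18, adjusted 0.53). The relation rested on wild type 2, the highest library, and knockout 1, the lowest: without these r was -0.0031. Deviations from the genotype means gave an r of 0.90, as a description.

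miR-451-5p and miR-144-5p, from the shared transcript, had an r of 0.75 (exact permutation p = 0.11, adjusted 0.33) and a rho of 0.83 (exact permutation p = 0.058, adjusted 0.35), and r was 0.95 without wild type 2 and knockout 1. Without wild type 2 alone this r was 0.37, and with TMM scaling r was 0.58 and rho 0.20. With upper-quartile scaling r was 0.43 and rho 0.26, and with miR-122-5p left out of the total they were 0.57 and -0.086. miR-144-3p had an r of -0.45 with miR-451-5p (exact permutation p = 0.35, adjusted 0.52), a rho of -0.20 (exact permutation p = 0.71, adjusted 0.80) and an r of 0.15 without the same pair of libraries, or 0.18 without knockout 1 alone. The arms of miR-144, cut from the hairpin printed above, had an r of 0.073 (exact permutation p = 0.88, adjusted 0.88) and a rho of 0.14 (exact permutation p = 0.80, adjusted 0.80). Without knockout 1 and 3 their r was -0.43. The remaining pairs were miR-144-3p with miR-486, at an r of -0.32 (exact permutation p = 0.55, adjusted 0.67) and a rho of -0.26 (exact permutation p = 0.66, adjusted 0.80), and miR-144-5p with miR-486, at an r of 0.65 (exact permutation p = 0.18, adjusted 0.37) and a rho of 0.37 (exact permutation p = 0.50, adjusted 0.80). Without their respective libraries farthest from the median, these were -0.16 and 0.14. The r of miR-144-3p with miR-486 also turned positive with TMM scaling, at 0.16, with RLE scaling, at 0.17, and without knockout 1, at 0.33.

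**Figure D3:**
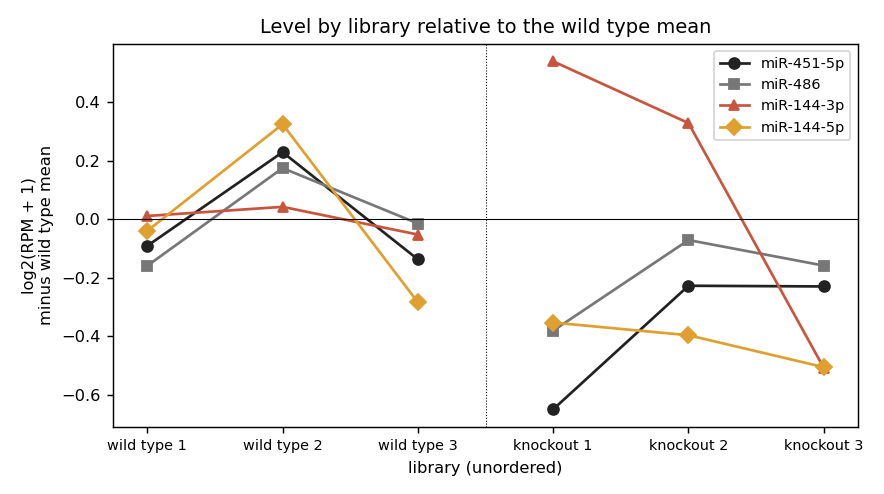
Level of 4 members in each library as log2(RPM + 1) minus the member's own wild type mean (y axis) for the 6 libraries (x axis); lines only join the points of a miRNA within a genotype, and library numbers have no order. miR-451-5p and miR-486 are highest in wild type 2 and lowest in knockout 1, while miR-144-3p is highest in knockout 1.

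miR-144-3p had the widest range between knockout libraries of the 218 miRNAs that averaged 10 RPM or more. Its highest knockout library, at 47.2 RPM, was 2.11 times its lowest, at 22.4 RPM, a range of 1.05 on the log2(RPM + 1) scale, where the median range was 0.33. Of all 570 tested rows, 4 showed a wider range among the knockout libraries, each averaging below 10 RPM. The next at or above 10 RPM were the rows miR-466b-4-3p and miR-466b-2-3p, both at 0.96. In the wild type the range of miR-144-3p was 0.09, and 202 of the 218 were wider. This comparison was chosen after the values were seen, has no test, and kept miR-144-3p in first place under upper-quartile, TMM or RLE scaling and with miR-122-5p left out of the total, at ranges of 1.13 to 1.21. The knockout libraries held 392, 399 and 201 reads of it in the order 1 to 3. All pairs of libraries of a genotype differed over these rows by more than counting noise. miR-144-5p showed the reverse, with a range of 0.15 in the knockout, where 188 of 218 were wider, and 0.61 in the wild type, where 58 were. The narrow range of each arm came from libraries whose spread lay below counting error.

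**Figure D4:**
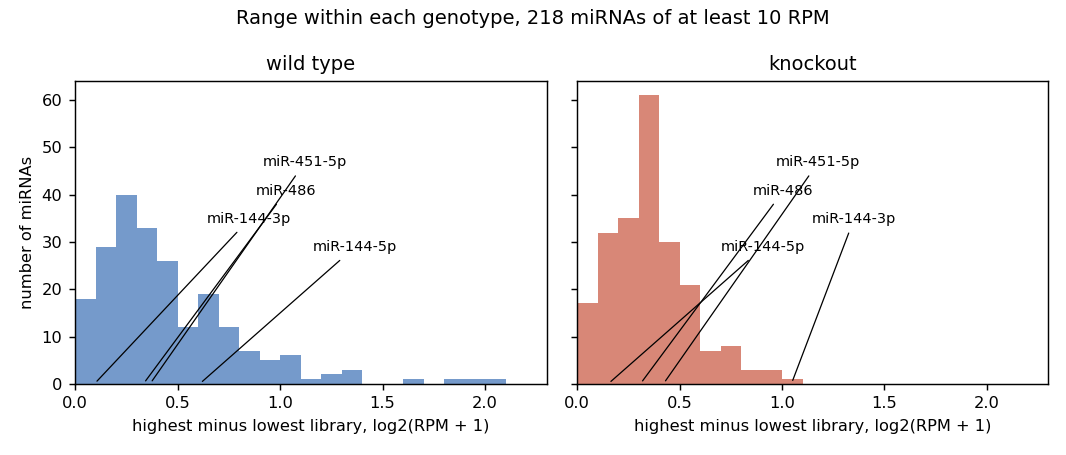
Histograms of the range between the highest and the lowest library of a genotype on the log2(RPM + 1) scale (x axis) for the 218 miRNAs of at least 10 RPM (y axis, number of miRNAs), wild type left and knockout right, with thin lines to the positions of 4 members. miR-144-3p is at 0.09 in the wild type and at 1.05, the far end, in the knockout.

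miRNAs with the most similar profile were found by Pearson's r of log2(RPM + 1) over the 6 libraries among 214 other miRNAs of at least 10 RPM, as a description. Nearest to miR-451-5p were miR-339-5p (r = 0.97), miR-511-3p (r = 0.95) and miR-872-3p (r = 0.94), and 14 of the 214 had an r above 0.9. Nearest to miR-486 were miR-361-5p (r = 0.93), miR-335 (r = 0.91) and miR-511-3p (r = 0.90). miR-144-3p had no such neighbour: its nearest were miR-24-1-5p (r = 0.88), miR-142-5p (r = 0.66) and miR-374-3p (r = 0.57), and 0 of the 214 had an r above 0.9. miR-24-1-5p stood at 14.8, 12.1 and 8.23 RPM in knockouts 1 to 3, ranked as miR-144-3p was. miR-142-5p, of white blood cells, stood at 319, 368 and 265 RPM there. miR-144-5p was added to this comparison after its values were seen. Its nearest were miR-3068-3p (r = 0.94), the muscle marker miR-499-5p (r = 0.94) and miR-30b-3p (r = 0.91). miR-499-5p stood at 128, 137 and 78.1 RPM in wild types 1 to 3 and at 77.8, 77.5 and 59.6 RPM in knockouts 1 to 3. The other listed muscle markers stayed at or below 4.85 RPM in every library. The row miR-1b, not on that list, stood at 38.7, 20.3 and 24.5 RPM in wild types 1 to 3. In knockouts 1 to 3 it stood at 15.3, 14.1 and 23.7 RPM. The part of muscle in the level of miR-144-5p was not tested.

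White blood cell markers are given as the other cells that blood would bring. Of 6, 0 passed the threshold (limma, adjusted p at or above 0.062), where 6.32% of all tested miRNAs did. The sum of these 6 ran from 818 to 934 RPM with HO-1 and from 863 to 968 RPM without it. With TMM scaling, where 8.6% of all tested miRNAs passed, 1 of the 6 did, miR-142-3p (log2 change 0.65, limma, adjusted p = 0.021). Before that scaling it stood at 282 ± 23 RPM with HO-1 and 378 ± 11 RPM without it (SD, n = 3), a log2 change of 0.42 (limma, adjusted p = 0.062). Of 3 platelet markers, 1 fell, miR-126a-3p, which is also 1 of the 2 endothelial markers that both fell. It went from 25300 ± 817 to 19302 ± 1170 RPM (SD, n = 3; limma, log2 change -0.39, adjusted p = 0.030), a call lost with TMM scaling (adjusted p = 0.53) and when any of the libraries other than knockout 2 was left out (adjusted p 0.054 to 0.16). The other endothelial strand, miR-126a-5p, fell from 983 ± 117 to 573 ± 53 RPM (SD, n = 3; limma, log2 change -0.77, adjusted p = 0.016), and lost its call without wild type 2, knockout 1 or knockout 3 (adjusted p 0.058 to 0.085). The part of these cells in the red cell values was not tested.

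Of 19 other miRNAs known to be abundant in red cells or their precursors, 4 were lower in the knockout, 0 were higher and 15 missed the threshold (limma, adjusted p below 0.05), where 5.61% of all tested miRNAs fell and 0.702% rose. In a limma fit of the 218 miRNAs of at least 10 RPM alone, 41 fell and 9 rose. Of the list's miRNAs in that fit, 5 fell and 1 rose. In the main fit the list's median log2 change was -0.24, beside -0.12 over all tested rows and -0.29 over those of at least 10 RPM. Besides miR-16-5p, the falls in the main fit were of miR-15a-5p, miR-92a-3p and miR-221-3p. miR-15a-5p went from 40.5 ± 7.0 to 19.6 ± 4.2 RPM (SD, n = 3). miR-92a-3p, from the miR-17-92 clusters, went from 2939 ± 223 to 1871 ± 274 RPM (SD, n = 3). miR-221-3p, a repressor of the stem cell factor receptor Kit that declines as red cells mature, went from 391 ± 135 to 83.9 ± 6.9 RPM (SD, n = 3). In the same order, the log2 changes were -1.02 (SE 0.22), -0.66 (SE 0.13) and -2.16 (SE 0.23), and limma gave adjusted p of 0.038, 0.025 and 0.0033. All of these are made in many other cells as well. miR-15b-5p, also on the list, did not pass, at 63.9 RPM with HO-1 and 49.4 RPM without it (limma, adjusted p = 0.28). Nor did miR-222-3p, which like miR-221-3p declines as red cells mature, at 96.6 and 45.0 RPM (limma, adjusted p = 0.056). The list's counts thus pool miR-221-3p and miR-222-3p with miRNAs not listed for such a decline.

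The most abundant of this list, miR-22-3p, averaged 8295 RPM with HO-1 and 10120.3 RPM without it, short of the threshold (limma, adjusted p = 0.36), nor did miR-25-3p at 934 and 863 RPM (limma, adjusted p = 0.61). With TMM scaling 4 fell and 3 rose, the latter being miR-182, miR-183-5p and miR-96-5p of a shared cluster, at 0.60, 1.15 and 0.62 on the log2 scale (adjusted p = 0.029, 0.015 and 0.041 in limma). With that scaling 5.09% of all tested miRNAs fell and 3.51% rose. The call of miR-221-3p held with any single library left out. That of miR-16-5p was lost without wild type 2 or knockout 3 (adjusted p 0.060 to 0.062), that of miR-92a-3p without wild type 1 or 2 or knockout 1 or 3 (adjusted p 0.066 to 0.097), and that of miR-15a-5p without any library but wild type 3 (adjusted p 0.070 to 0.13), so the count fell to 1 without knockout 3 and to 2 without wild type 1, wild type 2 or knockout 1.

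**Figure D5:**
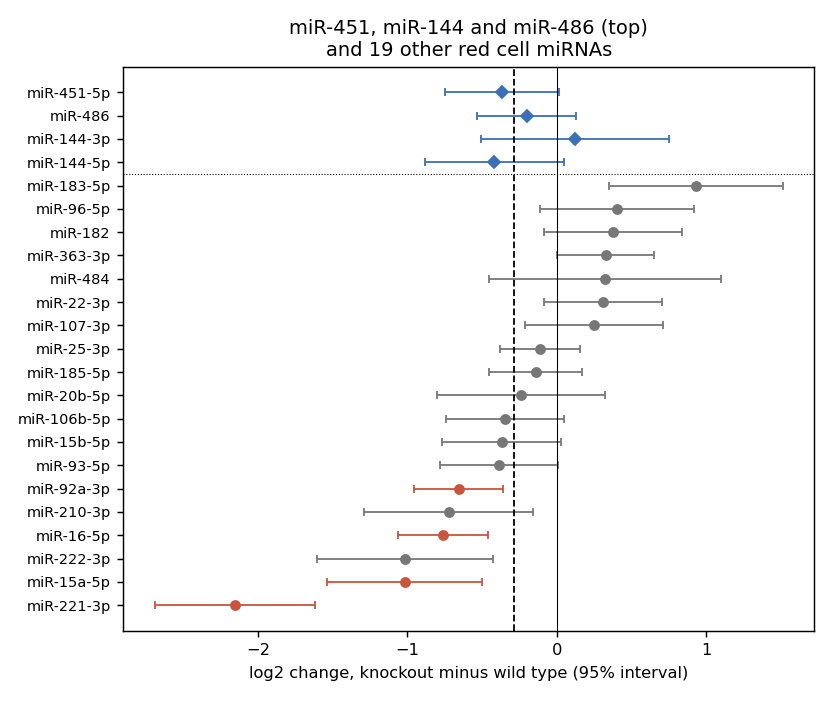
Log2 change of the knockout against the wild type with its 95% interval (x axis) for 4 members (blue diamonds, top) and the 19 other red cell miRNAs (circles, red where limma's adjusted p was below 0.05). The solid line is 0 and the dashed line the median of miRNAs of at least 10 RPM, -0.29; 4 of the 19 fell, and none of the members' intervals excluded 0.

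Through its seed, miR-144-3p also belongs beside miR-101. Bases 2 to 7 of miR-144-3p were shared by 2 other entries, and base 8 differed. The shared bases are in capitals.
miR-144-3p: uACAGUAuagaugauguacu
miR-101a-3p: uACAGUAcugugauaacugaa
miR-101b-3p: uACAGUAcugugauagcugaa
miR-101b-3p was far more abundant than miR-144-3p, at 6777 ± 251 RPM with HO-1 and 5393 ± 549 RPM without it (SD, n = 3; limma, log2 change -0.33, adjusted p = 0.098). miR-101a-3p stood at 779 ± 40 and 605 ± 99 RPM (SD, n = 3; limma, log2 change -0.38, adjusted p = 0.18). Both were lower in every knockout library than in any wild type library, as were 41.7% of the 218 miRNAs of at least 10 RPM. miR-144-3p thus made up a small part of the reads with this seed core.

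miR-144-3p was placed with 22 other miRNAs reported to target Nrf2, its inhibitor Keap1, the HO-1 repressor Bach1 or HO-1 itself. Of these 23, 22 were tested, 1 fell, 1 rose and 20 did not pass (limma, adjusted p below 0.05), where 5.61% of all tested miRNAs fell and 0.702% rose, and the median log2 change was -0.10. miR-200a-3p, which targets Keap1, fell from 420 ± 104 to 169 ± 19 RPM (SD, n = 3; limma, log2 change -1.28, SE 0.20, adjusted p = 0.016), and lost its call without knockout 3 (adjusted p = 0.079). miR-196b-5p, which targets Bach1, rose from 0.87 ± 0.26 to 3.58 ± 0.58 RPM (SD, n = 3; limma, log2 change 1.29, SE 0.22, adjusted p = 0.017), and lost its call without wild type 2, knockout 1 or knockout 3 (adjusted p 0.060 to 0.085). Without knockout 3 the list thus had 0 calls, and without wild type 2 or knockout 1 it had 1. With TMM scaling, where 5.09% of all tested miRNAs fell and 3.51% rose, 1 fell and 2 rose. The additional one was miR-98-5p (log2 change 0.53, limma, adjusted p = 0.024). Before that scaling it averaged 265 RPM with HO-1 and 327 RPM without it, a log2 change of 0.31 (limma, adjusted p = 0.26). The most abundant members were let-7f-5p, at 60104 RPM with HO-1 and 59331 RPM without it (limma, adjusted p = 0.88), and let-7g-5p, at 26883 and 22624 RPM (limma, adjusted p = 0.16). miR-27a-3p and miR-142-5p, listed with miR-144-3p as targeting Nrf2, stood at 1154 and 328 RPM with HO-1 and at 1070 and 317 RPM without it (limma, adjusted p = 0.71 and 0.81). The messenger RNA of HO-1, Nrf2, Keap1 and Bach1 was not measured by this assay.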

How the data were processed

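Per the labels' protocols, 1 μg of total RNA went into each small RNA library, and 50 bp were read from a single end. The authors deposited RPM for 764 miRNA entries, with their mean RPM of each genotype, log2 fold change and p-value, per the file headers. The submitters' processing notes list FastQC, BWA, edgeR and build rn6 without saying what each was used for. Mapping rules and miRNA annotation were not given in the sources used here.

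The main test was limma 3.58.1 (trended variance) on log2(RPM + 1) for the 570 entries detected in at least 1 library, comparing genotypes with no other term and Benjamini-Hochberg adjustment over all 570. Single values were compared by exact permutation tests. The RPM values were whole multiples of 1 read in 97.8% to 98.9% of values above 0 (tolerance 0.0051 RPM, 8.47% to 10.2% by chance), and these reads went into edgeR 4.0.16 and DESeq2 1.42.0 as alternatives. Wild type library 1 has a step so near 0.1 RPM that its total rests on its higher values. No replicate pair was alike within counting noise. limma with TMM scaling, edgeR and DESeq2 were run on simulated data, and the main limma fit, without that scaling, was not. The members and lists were chosen with earlier results of these data known. Named miRNAs were the members, 4 references, the 3 most similar to each of 3 members, those sharing a seed core, and of each list the called and the most abundant, with a few members for context chosen after their values were seen. RefSeq (GRCr8) held mature sequences for 689 entries and 4 of the 5 members.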

Additional observations from a re-analysis of the deposited data

How the results depend on the processing

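The 5 members missed the threshold in every fit that gave a value. The log2 change of miR-451-5p stayed negative, from -0.44 to -0.13, and that of miR-144-5p from -0.56 to -0.19. miR-486 turned to 0.019 with TMM scaling, 0.035 with RLE, 0.010 with upper-quartile scaling and 0.014 in DESeq2, and the cause was not tested beyond the scaling itself. With 1 library left out, miR-144-3p ranged from -0.090 to 0.43, the sum's difference from -105 to -48.7 RPM, and the log2 ratio of miR-451-5p to miR-23a-3p from -0.025 to 0.17. The r of miR-144-3p with miR-486 became 0.16 with TMM and 0.17 with RLE. With 1 library left out it ranged from -0.70 to 0.33, that with miR-451-5p from -0.81 to 0.18, and that with miR-144-5p from -0.54 to 0.31. miR-451-3p was not in the fit of miRNAs of at least 10 RPM and had no adjusted p in DESeq2.

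Over all miRNAs, 36 were called, 61 in edgeR, 72 in DESeq2, 22 with the replicate block, and 5 to 26 with 1 library left out. The list of 19 red cell miRNAs had 4 calls, 7 each with TMM, RLE and upper-quartile scaling, 9 in edgeR, 11 in DESeq2 and 1 to 4 with 1 library left out. The list around Nrf2 had 2 calls, 4 with miR-122-5p left out of the total, 1 among miRNAs of at least 10 RPM, 4 in DESeq2 and 0 to 2 with 1 library left out. The list counts under alternatives were chosen after seeing the data. Same-numbered libraries deviated together with r of 0.03, 0.18 and 0.20, and not every library correlated best with its own number, so the numbers were not taken to pair them; in the replicate block the log2 change of miR-451-5p was -0.37 (limma, adjusted p = 0.32). In these alternatives, a fit with 1 library left out of 3 has less power by construction.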
